A study of Homo sapiens with 12 samples.

Results

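MALT1, TRAF3IP2 and 6 genes whose proteins work beside them in CARD and TRAF signalling were followed in RNA-seq of A375 cells, an established line from a human metastatic melanoma grown from skin tissue. The 8 members are MALT1, BCL10, CARD10, CARD14, TRAF2, TRAF3, TRAF3IP2 and TRAF6, out of 23705 genes in the deposited count table, and all 8 were among the 13522 genes that had enough reads to be tested. MALT1 and TRAF3IP2 were picked on their difference between RGZ and vehicle in these same libraries, MALT1 because it was lower and TRAF3IP2 because it was higher, and the other 6 were added for their place in the pathway. Cells were kept for 24 h in DMSO vehicle, in rosiglitazone (RGZ) at 5 μM, in T0070907 at 2 μM, or in both compounds together at these doses (the combination). RGZ activates the nuclear receptor PPARγ, and T0070907 antagonises it. Each of the 4 conditions had 3 libraries, 1 from each of 3 independent experiments, in which RNA from technical replicates had been pooled. All conditions share the same cell line and solvent, so they describe 1 line and not melanoma at large.

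The proteins form a relay that ends in the transcription factor NF-κB. A CARD-containing scaffold (CARD10, also called CARMA3, in many non-lymphoid cells and CARD14, also called CARMA2, in skin) is phosphorylated by protein kinase C and gathers BCL10 and MALT1 into filaments, on which MALT1 binds the ubiquitin ligase TRAF6 and, as a paracaspase, cleaves a small set of proteins. TRAF3IP2, also called Act1, is the adaptor that carries the signal of IL-17 receptors to TRAF6, TRAF2 and other TRAF proteins, and TRAF2 and TRAF3 together hold back the non-canonical arm of NF-κB.

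Of the 8 genes, MALT1 was lower and TRAF3IP2 was higher when RGZ was given alone, which is how they had been picked. MALT1 was at 64.4 ± 6.47 CPM (SD, n = 3) in vehicle and 44.6 ± 2.69 CPM in RGZ, and TRAF3IP2 was at 26.4 ± 0.735 and 35.5 ± 1.95 CPM. Levels in CPM are read counts brought to a common library size, here with edgeR's TMM factors. When RGZ was added to T0070907, the log2 differences were -0.09 for MALT1 and 0.17 for TRAF3IP2, and neither passed the test. None of the other 6 genes passed the test in any comparison.

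MALT1 lies on the plus strand of chromosome 18, from 58671386 to 58754477 in GRCh38, with 17 exons in its longest GENCODE transcript. TRAF3IP2 lies on the minus strand of chromosome 6, from 111556454 to 111606278, and its longest transcript has 9 exons. The stretch just before the first annotated exon of MALT1 is printed because MALT1 is the member with the larger difference under a ligand of a DNA-binding receptor. It covers chr18:58671215-58671385 on the plus strand of GRCh38.p14, is taken from RefSeq, contains 171 bases and has a GC content of 76.6%.
MALT1: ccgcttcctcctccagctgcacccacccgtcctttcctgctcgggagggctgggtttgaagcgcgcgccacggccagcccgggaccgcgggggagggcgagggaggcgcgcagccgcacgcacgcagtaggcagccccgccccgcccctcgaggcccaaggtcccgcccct

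No base is in capitals, because neither motif searched was found in it. The motifs were the hexamer AGGTCA, which nuclear receptors bind, and the direct repeat AGGTCANAGGTCA with 1 free base between the hexamers, the classical element of PPARγ, both read on either strand. Among 35116 RefSeq windows of the 250 bases before a gene start, 12.1% held the hexamer and 0.0171% held the repeat, and every repeat also counts as a hexamer. The windows of BCL10, CARD10, MALT1, TRAF2, TRAF3, TRAF3IP2 and TRAF6 held neither motif. The windows are placed before RefSeq gene starts, so those of BCL10, TRAF2 and TRAF3IP2 lie inside the GENCODE span of the gene and those of MALT1 and CARD10 reach into it. No window of CARD14 was used.

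The depth was similar across the design, with total counts between 8319455 and 11375227 a library, so that 3 counts correspond to between 0.258 and 0.371 CPM. No pair of libraries within a condition agreed within sampling noise. Genes of the melanocyte lineage were present in part, while those of pigment formation were at or near 0. In vehicle, SOX10 was at 311 ± 109, MITF at 45.9 ± 12.2 and S100B at 25.7 ± 11.8 CPM (SD, n = 3), and AXL, a receptor kinase that marks dedifferentiated melanoma, was at 519 ± 62.9 CPM, but PMEL was at 1.13 ± 0.347 CPM, MLANA was below the level of 3 counts on average at 0.227 CPM and TYR had no count in any library. Of 7 markers of leukocytes, epithelium and endothelium, only KRT14 was above 3 CPM in any library. Their summed level ran from 15 to 33.8 CPM in vehicle, from 7.99 to 17.3 in RGZ, from 21.6 to 37.6 in T0070907 and from 13.8 to 30.9 in the combination. In RGZ, KRT14, S100B, MITF and AXL were lower than in vehicle in the edgeR fit with the replicate block (a term for the experiment), as MALT1 was, and none of these 4 passed without it. KRT14 went to 10.7 ± 5.49 from 20.8 ± 10.6 CPM and S100B to 12.9 ± 7.95 from 25.7 ± 11.8 CPM. The log2 difference was -0.34 (SE 0.08, adjusted p = 0.00997 with the block) for MITF and -0.22 (SE 0.07, adjusted p = 0.0434 with the block) for AXL. In the combination against RGZ, the blocked fit called S100B (1.34), KRT14 (1.10) and MITF (0.27) higher, and AXL (0.04) was not called. S100B was also higher in T0070907 than in vehicle, at 0.59 (adjusted p = 0.0119 with the block). These calls were absent without the block. The part of these markers in the results was not tested. In a culture measured in bulk, fewer cells of a kind and less RNA in each cell cannot be told apart.

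To compare genes with each other, the CPM in vehicle was set against transcript length, taking the longest GENCODE transcript in kilobases. On this scale TRAF2 was highest, at 22.2 ± 0.473 CPM per kb (SD, n = 3), followed by CARD10 at 16.8 ± 2.39, MALT1 at 6.87 ± 0.691, TRAF3 at 6.32 ± 0.588, TRAF3IP2 at 5.15 ± 0.143, BCL10 at 4.25 ± 0.364, TRAF6 at 3.13 ± 0.521 and CARD14 at 1.55 ± 0.213. MALT1 and TRAF3 overlapped between libraries, from 6.1 to 7.39 and from 5.88 to 6.99 CPM per kb, whereas no other neighbours in this order overlapped. The CARD10 libraries, from 14.5 to 19.3 CPM per kb, were thus far above those of CARD14, from 1.34 to 1.76. In RGZ the order of TRAF3IP2 and MALT1 was turned, with TRAF3IP2 at 6.92 ± 0.38 and MALT1 at 4.76 ± 0.287 CPM per kb.

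**Figure D1:**
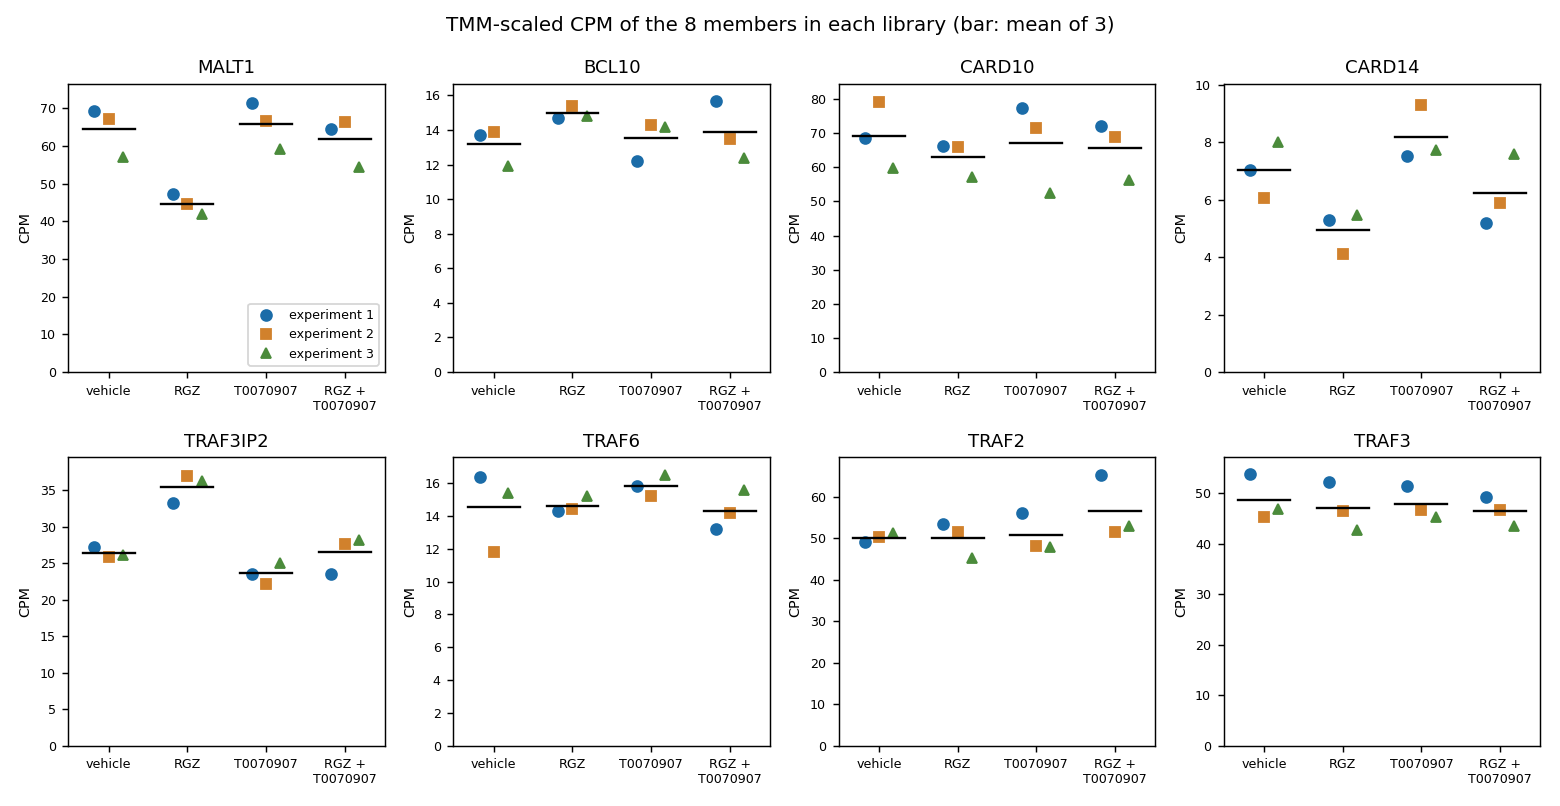
Level of each member in the 12 libraries, in TMM-scaled CPM on a linear axis that starts at 0. Symbols mark experiments 1, 2 and 3, and black bars are the mean of 3 libraries. The 3 RGZ libraries of MALT1 (41.8 to 47.2 CPM) sit below all other libraries and those of TRAF3IP2 (33.3 to 36.9 CPM) above all others.

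MALT1 is the paracaspase of the relay. In experiments 1, 2 and 3 it had 609, 564 and 485 counts in vehicle, or 69.2, 67.1 and 57.1 CPM. The RGZ libraries had 454, 391 and 412 counts, or 47.2, 44.6 and 41.8 CPM. All 3 RGZ libraries were below all vehicle libraries, at a ratio of 0.683, 0.665 and 0.733 within the same experiment. The T0070907 libraries stood at 71.4, 66.7 and 59.3 CPM and those of the combination at 64.6, 66.3 and 54.4 CPM. Both sets lay within or close to the vehicle range, and experiment 3 gave the lowest value in each of the 4 conditions. MALT1 overlaps the antisense gene AC104365.1 and, on its own strand, the pseudogene MRPL37P1, for which no counts were found. The part of their reads in the values of MALT1 was not tested.

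In edgeR the difference of MALT1 between RGZ and vehicle was -0.53 on the log2 scale, with a standard error of 0.10. T0070907 differed from vehicle by 0.03 (SE 0.10), the combination from vehicle by -0.06 (SE 0.10) and the combination from RGZ by 0.47 (SE 0.10). These comparisons share libraries with the one that picked MALT1, so they are given as a description and without a test. The comparison of the combination with T0070907 uses none of those libraries. There MALT1 was lower in 3 of 3 experiments, at ratios between 0.905 and 0.994, and the log2 difference of -0.09 (SE 0.10, 95% interval -0.31 to 0.13) did not pass the quasi-likelihood test of edgeR (Benjamini-Hochberg adjusted p = 0.737). The difference between both effects, the interaction, was 0.44 (SE 0.15, 95% interval 0.12 to 0.76) and is also a description, because it contains the libraries that picked the gene.

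TRAF3IP2, the adaptor of IL-17 receptors, went the other way. It had 240, 217 and 223 counts in vehicle, or 27.3, 25.8 and 26.2 CPM, and 320, 323 and 358 counts in RGZ, or 33.3, 36.9 and 36.3 CPM. The RGZ libraries were above every library of the other conditions. The T0070907 libraries held 23.6, 22.2 and 25.1 CPM and were all below the vehicle libraries, and those of the combination held 23.6, 27.7 and 28.2 CPM and overlapped with vehicle.

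The log2 difference of TRAF3IP2 was 0.42 (SE 0.09) for RGZ against vehicle, -0.16 (SE 0.09) for T0070907 against vehicle, 0.00 (SE 0.09) for the combination against vehicle and -0.42 (SE 0.09) for the combination against RGZ, again without a test. For the combination against T0070907, which shares no library with the choice, it was 0.17 (SE 0.09, 95% interval -0.03 to 0.36; edgeR adjusted p = 0.415), with ratios of 1, 1.25 and 1.12 in the 3 experiments. The interaction was -0.26 (SE 0.13, 95% interval -0.54 to 0.02), again as a description. TRAF3IP2 overlaps the antisense gene TRAF3IP2-AS1, and whether reads were counted by strand is not given in the sources used here. TRAF3IP2-AS1 had 37 to 61 counts a library and was at 5.95 ± 0.33 CPM in vehicle and 4.85 ± 0.999 CPM in RGZ (SD, n = 3), a log2 difference of -0.30 (SE 0.20, edgeR adjusted p = 0.651; 0.379 with the replicate block) that did not pass the test. The part of antisense reads in the values of TRAF3IP2 was not tested.

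In RGZ against vehicle, 2 of the 8 members were past the threshold of an adjusted p of 0.05, the 2 picked ones, where 1.24% of all tested genes were called. When the model also held a term for the experiment (the replicate block), the same 2 members were called and the share over all genes was 9.30%. Because this comparison made the choice, nothing is read from that count. In the combination against RGZ, 1 member (TRAF3IP2) was called without the block and 2 (MALT1 and TRAF3IP2) with it, beside 1.24% and 11.4% of all genes. This rests on the same RGZ libraries. In the fit without the block, the 2 calls for RGZ were sensitive to single libraries. MALT1 remained past the threshold when vehicle experiment 3 was left out and lost it when any other vehicle or RGZ library was left out, and TRAF3IP2 lost it each time, although the log2 difference kept to between -0.61 and -0.48 for MALT1 and between 0.40 and 0.47 for TRAF3IP2.

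**Figure D2:**
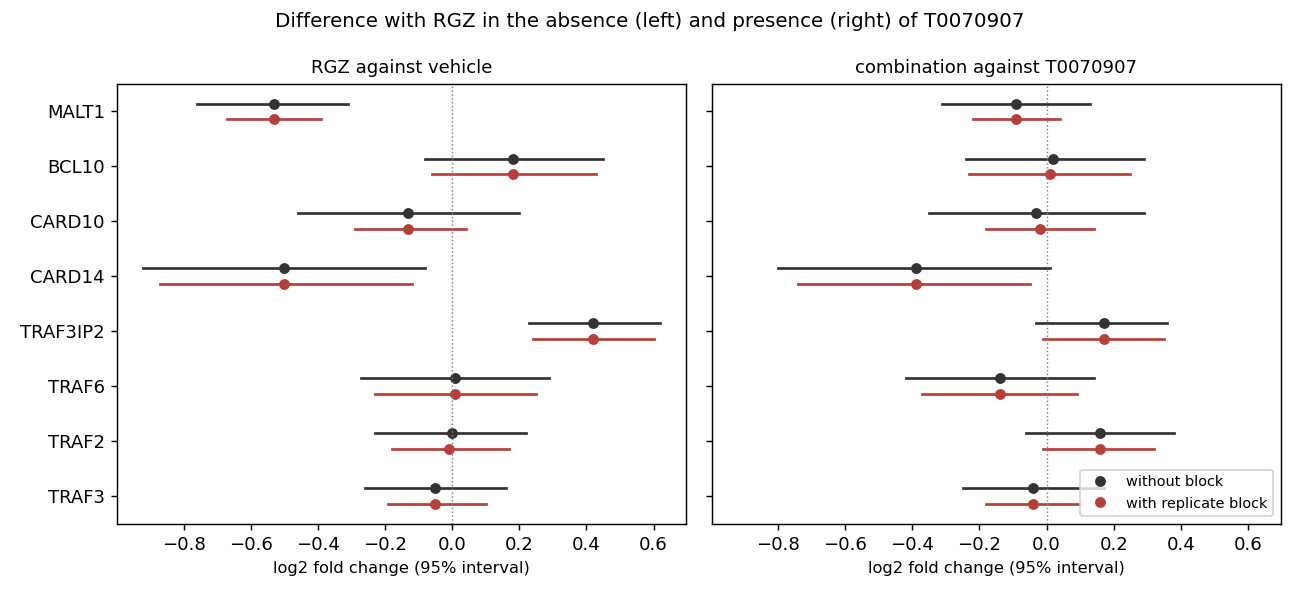
Log2 fold change of each member with its 95% interval, for RGZ against vehicle (left) and for the combination against T0070907 (right), from the edgeR fit without (dark) and with (red) the replicate block. MALT1 at -0.53 and TRAF3IP2 at 0.42 on the left were picked for those values, and on the right they are at -0.09 and 0.17.

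BCL10, the linker between the CARD scaffold and MALT1, was measured at 13.7, 13.9 and 11.9 CPM in vehicle and at 14.7, 15.4 and 14.8 CPM in RGZ. The RGZ libraries were above all vehicle libraries, yet the log2 difference of 0.18 (SE 0.12, 95% interval -0.08 to 0.45) did not pass the test (edgeR adjusted p = 0.649). In T0070907 and in the combination BCL10 was at 13.6 ± 1.17 and 13.9 ± 1.67 CPM (SD, n = 3), and both ranges overlapped with vehicle. The gene lies on chromosome 1, from 85265776 to 85276904 on the minus strand.

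CARD10, the scaffold of many epithelial cells, was at 69.1 ± 9.81 CPM in vehicle, 63.2 ± 5.15 in RGZ, 67.2 ± 13 in T0070907 and 65.8 ± 8.31 in the combination (SD, n = 3), and its libraries overlapped between all conditions. The log2 difference for RGZ was -0.13 (SE 0.15, 95% interval -0.46 to 0.20; edgeR adjusted p = 0.816). Experiment 3 gave its lowest value in every condition, as it did for MALT1.

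CARD14, the scaffold known from skin, had the largest difference among the members that had not been picked. It had 62, 51 and 68 counts in vehicle (7.04, 6.07 and 8 CPM) and 51, 36 and 54 counts in RGZ (5.3, 4.11 and 5.48 CPM). All RGZ libraries were below all vehicle libraries, with ratios between 0.677 and 0.753 within an experiment. The log2 difference was -0.50 (SE 0.19, 95% interval -0.92 to -0.08) and did not pass the adjusted test (edgeR adjusted p = 0.355; 0.0996 with the replicate block).

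CARD14 was lower again when RGZ was added to T0070907. The T0070907 libraries were at 7.51, 9.31 and 7.75 CPM and those of the combination at 5.19, 5.89 and 7.61 CPM, so that 1 library of the combination reached into the T0070907 range. The log2 difference was -0.39 (SE 0.19, 95% interval -0.80 to 0.01; edgeR adjusted p = 0.345; 0.124 with the replicate block) and was negative in 3 of 3 experiments. The interaction for CARD14 was 0.11 (SE 0.27, 95% interval -0.48 to 0.69; edgeR adjusted p = 1). CARD14 overlaps SGSH on the opposite strand, a gene with 157 to 263 counts a library. SGSH was at 20.8 ± 1.54 CPM in vehicle and 20.1 ± 1.8 CPM in RGZ.

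The 3 TRAF proteins were close to level. TRAF6, the ligase that both MALT1 and TRAF3IP2 bind, was at 16.4, 11.8 and 15.4 CPM in vehicle and at 14.7 ± 0.496 CPM in RGZ, 15.8 ± 0.62 in T0070907 and 14.4 ± 1.22 in the combination (SD, n = 3). Its log2 difference for RGZ was 0.01 (SE 0.13, 95% interval -0.27 to 0.29; edgeR adjusted p = 0.987). The vehicle libraries alone spanned the means of all other conditions.

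TRAF2 was at 49.1, 50.2 and 51.2 CPM in vehicle and at 53.5, 51.5 and 45.3 CPM in RGZ, a ratio of the fitted levels of 0.999 (95% interval of the log2 difference -0.23 to 0.22; edgeR adjusted p = 0.998). The combination held 65.2, 51.6 and 53 CPM, which was above vehicle in 3 of 3 experiments, with the first experiment well above the others. That log2 difference was 0.17 (SE 0.10, 95% interval -0.05 to 0.40; edgeR adjusted p = 0.552). TRAF3 was at 48.7 ± 4.53 CPM in vehicle, 47.1 ± 4.83 in RGZ, 47.8 ± 3.3 in T0070907 and 46.5 ± 2.9 in the combination. Its log2 difference for RGZ was -0.05 (SE 0.10, 95% interval -0.26 to 0.16; edgeR adjusted p = 0.909), and the conditions overlapped.

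Across the comparisons, 0 of these 6 members were called by edgeR with or without the block. At an unadjusted p under 0.05 the fit without the block had 1 of 6 (CARD14) in RGZ against vehicle and 0 of 6 in every other comparison. The blocked fit had 1 of 6 (CARD14) in RGZ against vehicle, 1 (TRAF2) in the combination against RGZ, 1 (CARD14) in the combination against T0070907 and 0 in the others, and neither DESeq2 nor limma-voom called any of the 6 in the 5 comparisons between conditions. In T0070907 against vehicle 0 of 8 members were called, beside 0.00740% of all genes in the unblocked fit and 0.910% in the blocked fit. In the combination against vehicle 0 of 8 were called, beside 0% of all genes in both fits, although 1438 genes had an unadjusted p under 0.05 without the block. In the combination against T0070907 it was 0 of 8 beside 0.0370% and 8.76%, and in the interaction 0 of 8 beside 0% and 0.281%. In the blocked interaction, 1 of the 2 picked members was called when combination experiment 1 or 2 was left out. The median log2 difference over the 8 members was -0.02 for RGZ against vehicle and -0.03 for the combination against T0070907, beside -0.01 over all genes in both.

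The levels of the members followed each other in part. After the mean of each experiment was subtracted from log2 CPM, Pearson's r over the 12 libraries was -0.91 between MALT1 and TRAF3IP2, 0.78 between MALT1 and CARD14, -0.81 between CARD14 and TRAF3IP2 and -0.58 between MALT1 and BCL10. For MALT1 it was 0.13 with TRAF2, 0.23 with TRAF3 and 0.13 with TRAF6. These are descriptions across libraries that share experiments and conditions, and the RGZ libraries that picked MALT1 and TRAF3IP2 are among them.

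By the same measure, over 10927 genes that averaged 5 CPM or more, the genes most like MALT1 were OLFML2A (r = 0.986), a secreted olfactomedin-domain protein, IL17RD (0.985), a member of the IL-17 receptor family that also restrains FGF signalling, SYNM (0.982), which codes for an intermediate filament protein, ARHGAP18 (0.978), a GTPase-activating protein, and DKK1 (0.978), a secreted antagonist of Wnt signalling. In OLFML2A the levels were 20.3 ± 4.29 CPM in vehicle, 8.37 ± 3.38 in RGZ, 21.7 ± 4.56 in T0070907 and 18 ± 1.87 in the combination (SD, n = 3). DKK1 was the most abundant of them, with 273 ± 46.7 CPM in vehicle and 213 ± 35.2 in RGZ. In all 5 genes, as in MALT1, the mean was lowest in RGZ and highest in T0070907. The 5 were chosen for likeness to MALT1 over these same libraries, so nothing is read from the shared order.

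The genes most like TRAF3IP2 were FHOD3 (r = 0.990), a formin that builds actin filaments, GPAT3 (0.984), an acyltransferase of triglyceride synthesis, ITGA6 (0.984), the integrin α6 chain, CCDC80 (0.983), a secreted matrix protein, and ARHGAP26 (0.983), a GTPase-activating protein. FHOD3 was at 10.6 ± 0.523 CPM in vehicle, 24.2 ± 1.66 in RGZ, 7.01 ± 1.82 in T0070907 and 9.73 ± 2.2 in the combination (SD, n = 3). ITGA6 went from 285 ± 52.2 to 428 ± 51 CPM with RGZ. In all 5 genes, as in TRAF3IP2, T0070907 alone had the lowest mean. This too follows from how the 5 were chosen.

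**Figure D3:**
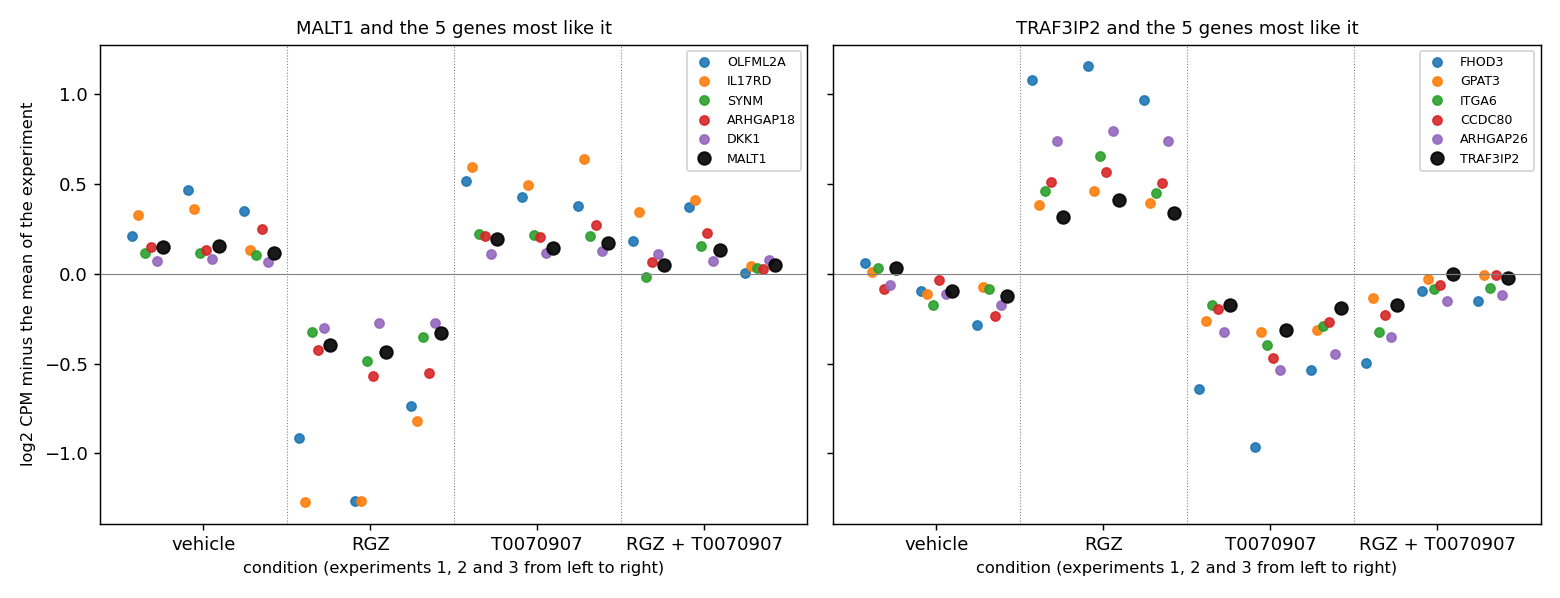
Log2 CPM minus the mean of the same experiment in the 12 libraries, for MALT1 (left, black) and TRAF3IP2 (right, black) and the 5 genes with the highest Pearson's r to each (colours). In the left panel all 6 genes are lowest in the 3 RGZ libraries, and in the right panel all 6 are highest there. The coloured genes were chosen for this likeness, so the shared pattern is a description.

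The genes around the members were described with 11 lists of 62 distinct genes, from IL-17 receptors and kinases above the scaffolds to NF-κB and its response genes, of which 58 were tested. Without the block 0 of 58 were called in any comparison, although 9 had an unadjusted p under 0.05 in RGZ against vehicle, and DESeq2 called 2 there (SQSTM1 and IRAK2). With the replicate block 9 of 58 (15.5%) were called for RGZ against vehicle, 7 higher and 2 lower, beside 9.30% of all genes, and 5 were called there without vehicle experiment 3. The calls named below come from the blocked edgeR fit and are absent from the fit without the block.

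Among the 5 chains of the IL-17 receptor family, whose signal TRAF3IP2 passes on, IL17RD fell with RGZ and the other 4 were not called. This stands beside 9.30% of all genes called for RGZ with the block. IL17RD was at 8.29, 18.4 and 7.88 CPM in vehicle and at 2.6, 5.82 and 3.96 CPM in RGZ. The RGZ libraries did not overlap with vehicle, and experiment 2 was the highest in both conditions. The log2 difference was -1.46 (SE 0.17, adjusted p = 9.88e-06 with the block; -1.49, SE 0.48, adjusted p = 0.232 without it). In T0070907 it was at 10.1, 20.2 and 11.3 CPM and in the combination at 8.4, 19.1 and 7.39 CPM, a log2 difference of -0.27 (SE 0.13, blocked adjusted p = 0.175). The interaction of IL17RD was 1.19 (SE 0.21, blocked adjusted p = 0.0336; adjusted p = 1 without the block). The ligand-binding chains IL17RA and IL17RC, the pair that recruits TRAF3IP2, were at 21.1 ± 1.62 and 26.5 ± 5.61 CPM in vehicle and at 17.7 ± 0.693 and 21.3 ± 2.4 CPM in RGZ (SD, n = 3), with blocked adjusted p-values of 0.145 and 0.0637.

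Of the 8 tested partners of TRAF6, 2 were called for RGZ, beside 9.30% of all genes, and both rose. SQSTM1 (p62), a scaffold that binds TRAF6, rose from 601 ± 123 CPM in vehicle to 999 ± 246 in RGZ, was at 458 ± 53.1 in T0070907 and at 659 ± 69.8 in the combination (SD, n = 3). Its log2 difference was 0.73 for RGZ (SE 0.07, blocked edgeR adjusted p = 6.93e-07), and -0.38 for T0070907 against vehicle (SE 0.07, adjusted p = 0.00667). SQSTM1 was the only 1 of 58 called for T0070907 against vehicle, beside 0.910% of all genes. That count was 0 without vehicle experiment 2 or 3 or T0070907 experiment 2 or 3. IRAK2, a kinase of Toll-like and IL-1 receptors, had 31, 53 and 40 counts in vehicle and 87, 138 and 93 in RGZ. Its log2 difference was 1.23 (SE 0.17, blocked adjusted p = 6.28e-05), and no RGZ library overlapped with vehicle. The other 6 tested genes of this list were not called.

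Upstream of the scaffolds, all 5 tested protein kinase C genes were on the higher side with RGZ, between 0.05 and 0.34 on the log2 scale, and 2 of 5 were called with the block, beside 9.30% of all genes, led by PRKCD at 0.34 (SE 0.07, blocked adjusted p = 0.00194). All 5 were on the lower side in the combination against RGZ, where 3 were called with the block, beside 11.4% of all genes, and PRKCA was at -0.50 (SE 0.09, adjusted p = 8.56e-04). Both comparisons share the RGZ libraries. Of the 4 other TRAF genes 1 was called for RGZ, TRAF1, at -0.56 (SE 0.13, adjusted p = 0.0109).

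The lists further along the relay are short, and their counts with the block stand beside 9.30% of all genes called for RGZ, so that nothing is read from 0 or 1 call in a list. In the TAK1 complex and LUBAC, which pass the signal from TRAF6 to the kinases, 0 of 7 genes were called and their log2 differences for RGZ lay between -0.04 and 0.04. Of the IKK complex 0 of 3 were called (between -0.03 and 0.12), of the NF-κB and IκB proteins 0 of 9 (between -0.17 and 0.21) and of the non-canonical arm 0 of 5 (between -0.26 and 0.20). At an unadjusted p under 0.05 the blocked fit had 0 genes of the first pair of these lists, 1 of the NF-κB and IκB proteins and 2 of the non-canonical arm. Of 9 genes for proteins that MALT1 cleaves, 1 was called, ZC3H12A (Regnase-1), a nuclease that degrades inflammatory mRNAs, at 0.45 (SE 0.13, adjusted p = 0.0365). Of 9 tested response genes of NF-κB, 1 was called, the chemokine CXCL2, at 1.35 (SE 0.26, adjusted p = 0.00197) and from a low level of 1.09 ± 0.202 CPM in vehicle to 2.81 ± 0.814 in RGZ.

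When RGZ was added to T0070907, 5 of 58 genes (8.62%) were called with the block, beside 8.76% of all genes. The count rested on single libraries: it was 1 without T0070907 experiment 1, T0070907 experiment 2 or combination experiment 3, and 3 without T0070907 experiment 3. It was 4 without combination experiment 1 and 7 without combination experiment 2. The 5 genes were SQSTM1 at 0.52 (SE 0.07, adjusted p = 1.43e-04), RC3H2 (Roquin-2), an mRNA-decay protein that MALT1 cleaves, at -0.46 (SE 0.11, adjusted p = 0.0166), UBE2N (Ubc13), the ubiquitin-conjugating enzyme of TRAF6, at 0.19 (SE 0.05, adjusted p = 0.0332), and the chemokines CXCL1 at 0.33 (SE 0.09, adjusted p = 0.0336) and CXCL8 at 0.44 (SE 0.13, adjusted p = 0.0434). SQSTM1 was thus called for RGZ both without and with T0070907. In the combination against RGZ 12 of 58 (20.7%) were called beside 11.4% of all genes, led by IL17RD at 1.47 (SE 0.16, adjusted p = 9.61e-06), SQSTM1 at -0.58 (SE 0.07, adjusted p = 1.02e-05) and IRAK2 at -1.05 (SE 0.16, adjusted p = 2.28e-04). In the combination against vehicle 0 of 58 were called, with 6 at an unadjusted p under 0.05 in the blocked fit and 0 called by DESeq2, but the blocked fit called 5 without combination experiment 2 and 2 without vehicle experiment 2.

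**Figure D4:**
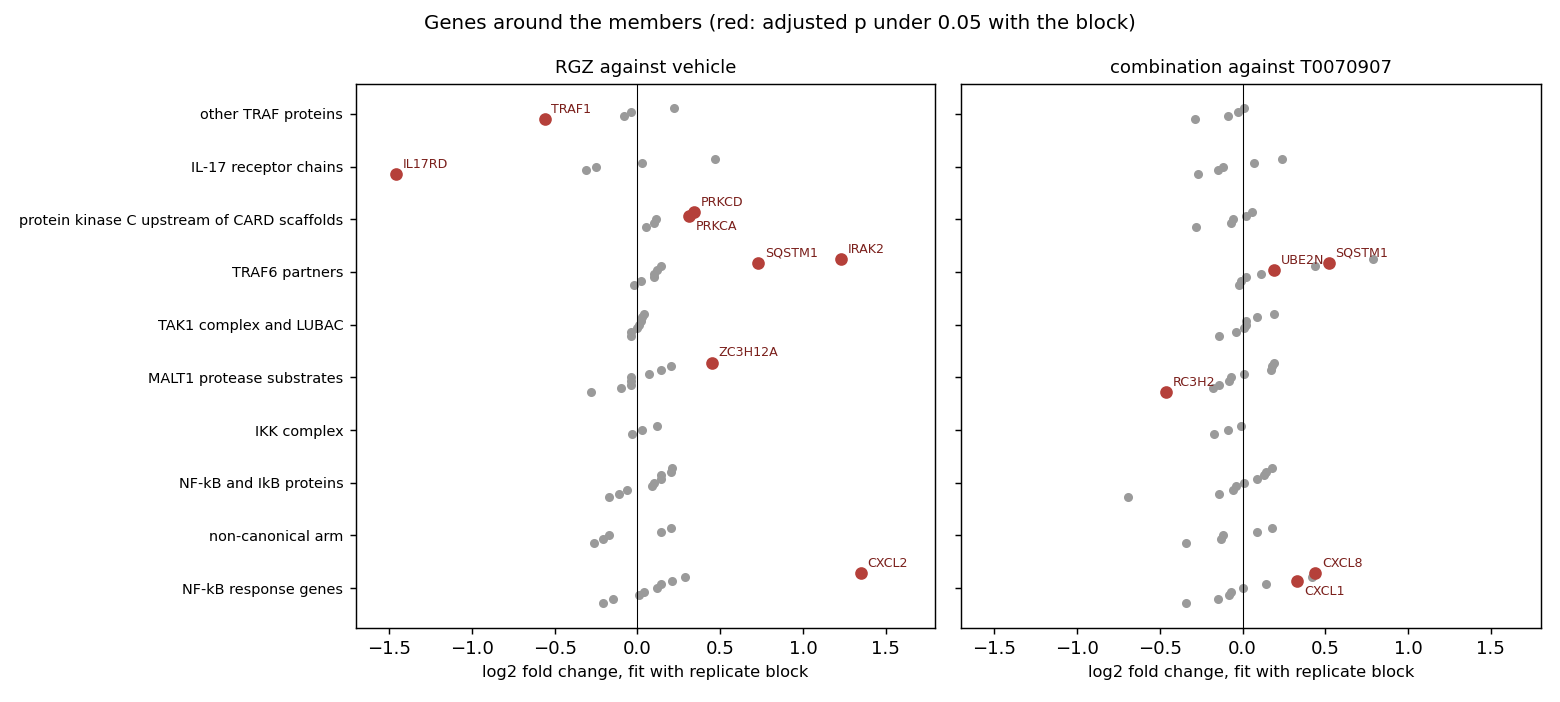
Log2 fold change of the tested genes of 10 lists around the members, for RGZ against vehicle (left) and the combination against T0070907 (right), from the edgeR fit with the replicate block. Red points with a name have an adjusted p under 0.05 in that fit, 8 on the left and 5 on the right, and grey points do not. The lists from the TAK1 complex to the non-canonical arm hold red points only among MALT1 protease substrates.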

How the data were processed

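RNA of A375 cells was sequenced (TruSeq RNA libraries, HiSeq 2000) in 12 libraries, 3 for each of 4 conditions. The deposited table holds the raw counts that the authors obtained for 23705 NCBI gene numbers, without normalization. The submitters' processing notes name the build hg19, and the aligner, counter and strand setting are not given in the sources used here. A symbol was found for 23538 gene numbers. Coordinates and transcript lengths are from GENCODE on GRCh38 and were used for description only. Length was known for 98.4% of the tested genes. The table held 0 columns of other samples.

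In R 4.3.3, counts were scaled by TMM and filtered by filterByExpr in edgeR 4.0.16, and a quasi-likelihood model of the 4 conditions was fitted to all 12 libraries. P-values were two-sided and adjusted over 13522 genes by the Benjamini-Hochberg method, with a threshold of 0.05. Standard errors are approximate, obtained from the log2 change and the F statistic. Floors cover counting error only. Libraries with the same number in their label were taken to come from the same independent experiment, which the labels do not state in words. Their deviations from the condition means correlated at 0.554 on average (0.0793 to 0.758, over 0.1 in 17 of 18 pairs), so the fit with the replicate block is printed where it changes a call. P-values without the block rest on the spread between the 3 libraries of a condition. Those with the block rest on the spread left after the experiment term, within these 3 experiments.

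Alternatives were DESeq2 1.42.0, its size factors, limma-voom (limma 3.58.1), each tool with the block, no filter, at least 10 counts in every library, a threshold of 0.01, only the groups compared, and leaving out each library. The block together with leaving out a library was added after seeing the data. Fits were also run on counts simulated from the blocked edgeR fit, and no result here rests on them. The members, the lists and the rules were chosen with earlier results of these data known. Named were all members, the 5 genes most like MALT1 and TRAF3IP2, up to 4 list genes a comparison with the smallest blocked adjusted p, and the genes at the ends of a list's range. UBE2N, CXCL1, CXCL8 and ZC3H12A were named because they complete a small count. A called gene of 1 list is counted in the totals and not reported here.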

Additional observations from a re-analysis of the deposited data

Results flagged for a closer look

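IL17RD, of the IL-17 receptor family, is the single gene of the pathway lists for which the change with RGZ differed between cells without and with T0070907, by the test of the difference itself. The difference of the log2 changes was 1.19 (SE 0.21, edgeR adjusted p = 0.0336) in the fit with the replicate block, beside 0.281% of all genes called there, and 1.24 (SE 0.65, adjusted p = 1) without the block. Leaving out single libraries in the blocked fit, which was added after seeing the data, gave values between 1.06 and 1.36, and the call was lost (adjusted p between 0.0513 and 0.15) without any 1 of the 3 vehicle libraries, RGZ experiments 1 or 2, or T0070907 experiments 1 or 2. It is also 1 of the 10 genes named for levels most like those of MALT1 or TRAF3IP2, and 3 others of those 10 passed the same blocked test, OLFML2A at 1.01 (SE 0.18), ARHGAP18 at 0.58 (SE 0.11) and ARHGAP26 at -0.63 (SE 0.13). Those 10 were chosen on the levels in the same libraries, so these values are a description.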

How the results depend on the processing

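Under 16 alternatives a comparison, none of the 6 members that had not been picked passed the threshold in any of the 5 comparisons between conditions. MALT1 and TRAF3IP2 also stayed below it for the combination against T0070907, at log2 values between -0.16 and -0.01 and between 0.12 and 0.24, with adjusted p between 0.377 and 0.988 and between 0.217 and 0.67. The replicate block changed the number of members called only in the combination against RGZ, from 1 to 2, and 2 were also called there with DESeq2 size factors, DESeq2, and DESeq2 or limma-voom with the block. That count was 0 with no filter on low counts, at an adjusted p under 0.01 and with only the groups compared, and from 0 to 1 with single libraries left out. For RGZ against vehicle the 2 members called became 1 with no filter, 0 at an adjusted p under 0.01, 0 with only the groups compared, and from 0 to 1 with a library left out. These settings carry no block. In the blocked fit with a library left out, 2 members were called in each of the 6 fits for RGZ against vehicle and each of the 6 for the combination against RGZ. The cause was not tested.

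The number of list genes called depended most on the block. In edgeR with the replicate block it was 9 for RGZ, 1 for T0070907, 12 for the combination against RGZ, 5 for the combination against T0070907 and 1 for the interaction, where the fit without the block had 0 in each. DESeq2 with the block gave 6, 1, 7, 4 and 1, and limma-voom with the block 9, 1, 11, 4 and 1. Without the block, DESeq2 called 2 for RGZ and 3 (IL17RD, PRKCA and SQSTM1) for the combination against RGZ, no filter gave 1 for RGZ (SQSTM1), and leaving out a library gave from 0 to 1 for RGZ (SQSTM1, without vehicle experiment 2) and from 0 to 1 for the combination against RGZ (PRKCA, without combination experiment 2). With the block and a library left out, the 9 for RGZ became 5 without vehicle experiment 3. They became 6 without vehicle experiment 2, RGZ experiment 1 or RGZ experiment 3. The 12 became 8 without RGZ experiment 1 or 3, and 15 without combination experiment 2. The 5 became 1 without T0070907 experiment 1 or 2 or combination experiment 3, and 3 without T0070907 experiment 3. They became 4 without combination experiment 1 and 7 without combination experiment 2. The 1 for T0070907 became 0 without vehicle experiment 2 or 3 or T0070907 experiment 2 or 3, and the 0 for the combination against vehicle became 5 without combination experiment 2 and 2 without vehicle experiment 2.

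Values near 0 changed sign when single libraries were left out, and TRAF2 for RGZ was 0.00 with no filter. With a library left out, log2 differences for RGZ lay from -0.05 to 0.07 for TRAF2, -0.13 to 0.03 for TRAF3 and -0.12 to 0.11 for TRAF6. For T0070907 they lay from -0.05 to 0.10 for MALT1, -0.02 to 0.11 for BCL10, -0.16 to 0.11 for CARD10, -0.06 to 0.06 for TRAF2, -0.08 to 0.05 for TRAF3 and -0.00 to 0.22 for TRAF6. For the combination against vehicle they lay from -0.14 to 0.02 for MALT1, -0.03 to 0.14 for BCL10, -0.17 to 0.04 for CARD10, -0.11 to 0.01 for TRAF3, -0.04 to 0.08 for TRAF3IP2 and -0.14 to 0.08 for TRAF6. Against RGZ they lay from -0.01 to 0.16 for CARD10, -0.09 to 0.06 for TRAF3 and -0.10 to 0.03 for TRAF6, and against T0070907 from -0.07 to 0.10 for BCL10, -0.18 to 0.08 for CARD10 and -0.08 to 0.02 for TRAF3. CARD14 had the lowest counts among the members, 36 to 104 a library.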
